A study of Mus musculus with 12 samples.

Results

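The 9 genes described here encode conjugating enzymes of the liver. They are 7 UDP-glucuronosyltransferases of the Ugt2 family (Ugt2b34, Ugt2b1, Ugt2b35, Ugt2b36, Ugt2b5, Ugt2a3 and Ugt2b38) and 2 cytosolic sulfotransferases (Sult1b1 and Sult1d1). They were taken by name and position from a table of 20143 genes, with earlier results of these data known, and all 9 were found. The rule itself uses no measured value. On mouse build mm10 with the GENCODE vM21 annotation they lie on chromosome 5 between positions 86889767 and 87569027, a stretch of 679 kb. Ugt2b35 is on the plus strand and the other 8 are on the minus strand. Their lowest coordinates lie 16.4 to 17.1 Mb from that of Hsd17b13, the gene knocked out in the study. RNA was measured in the livers of 6 wild-type (WT) mice and 6 Hsd17b13-knockout (KO) mice. Mice of both genotypes entered the experiment at 8 to 10 weeks of age and ate CDAA-HFD for 12 weeks, a diet without choline, made with free amino acids and rich in fat, which produces steatohepatitis and fibrosis. The steatohepatitis diet was therefore shared by all 12 mice, and no mice on another diet were analysed here. Strain, sex, litter, batch, the allele and its breeding are not stated in the labels. In every library the 4 measured Y-linked transcripts reached at least 18.3 CPM (counts scaled to a total of 1000000 per library), and Xist was at most 1.36 CPM.

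UDP-glucuronosyltransferases sit in the membrane of the endoplasmic reticulum and move glucuronic acid from UDP-glucuronate onto steroids, bile acids, fatty acids, phenols and drugs. Cytosolic sulfotransferases move a sulfate group from PAPS onto many of the same kinds of molecule. Both reactions make the product more water-soluble, so that transporters can send it into bile or blood, and hepatocytes carry out much of this work. The Ugt2 genes arose by tandem duplication, each Ugt2b gene having its own promoter and exons, so close relatives can share long stretches of sequence.

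All values are CPM as the authors deposited them. From the smallest steps between low values, 1 CPM stood for 46.3 to 77.9 reads in the 12 libraries. Hsd17b13 (chromosome 5, 103955440 to 103977410) measured 315 to 393 CPM in the WT livers and 0.956 to 1.40 CPM in the KO livers, so every library matched its genotype label. The 9 measured hepatocyte markers of 10 listed summed to 76434 to 98745 CPM in WT and 78161 to 94294 CPM in KO, which fits the liver label. In bulk tissue, fewer cells of a type and less RNA per cell cannot be told apart. The 8 cholangiocyte markers summed to 279 to 823 CPM in WT and 162 to 341 CPM in KO, with none at 0. Most of that sum was Spp1, a gene on the chromosome of Hsd17b13, at 384 ± 171 CPM in WT and 182 ± 58.6 CPM in KO. All 8 had lower means in KO. The 9 stellate cell markers summed to 1028 to 1744 CPM in WT and 900 to 1146 CPM in KO. The part of these differences in the values below was not tested. The sums of the 7 macrophage markers were 1516 to 2322 CPM in WT and 1199 to 1704 CPM in KO. Within these lists some members went the other way: Cd5l, of resident macrophages, was at 168 ± 29.1 CPM in WT and 237 ± 26.5 CPM in KO, Clec4f at 81.9 ± 21.8 and 123 ± 29.0 CPM, and Lrat, a marker of quiescent stellate cells, at 38.3 ± 6.34 and 52.2 ± 7.0 CPM. None of these list genes was called. None of the listed kidney tubule markers was among the genes measured. Cela1, the only measured pancreas marker, set 2 libraries apart, at 224 CPM in WT mouse 1 and 94.4 CPM in KO mouse 3 against 4.99 to 7.25 CPM in the other 10. Without either of these mice, 0 of the 9 genes were called.

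The DNA just upstream of the genes shows how alike the Ugt2 members are. The windows below hold the 120 bases before the RefSeq start of each gene on GRCm38.p6 (the same chromosome sequences as mm10), written 5′ to 3′ on the gene's strand. Capitals mark matches to GTTANNNNTTAA. Of all patterns made of 2 words of 4 bases with 0 to 8 bases between them, this was the only 1 found on the gene's strand in the 300-base RefSeq windows of all 7 Ugt2 members, so it was chosen from these sequences. Sult1d1 is shown as a window without it.
Ugt2b34: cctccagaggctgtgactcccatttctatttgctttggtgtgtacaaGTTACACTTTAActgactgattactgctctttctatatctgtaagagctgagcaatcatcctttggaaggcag
Ugt2b1: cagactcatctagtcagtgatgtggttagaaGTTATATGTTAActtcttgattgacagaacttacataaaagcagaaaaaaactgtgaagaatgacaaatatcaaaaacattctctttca
Ugt2b35: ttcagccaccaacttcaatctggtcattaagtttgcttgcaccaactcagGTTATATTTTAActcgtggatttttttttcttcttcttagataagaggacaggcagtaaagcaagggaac
Ugt2b36: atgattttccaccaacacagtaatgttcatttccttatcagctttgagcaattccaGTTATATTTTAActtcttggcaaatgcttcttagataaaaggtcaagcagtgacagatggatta
Ugt2b5: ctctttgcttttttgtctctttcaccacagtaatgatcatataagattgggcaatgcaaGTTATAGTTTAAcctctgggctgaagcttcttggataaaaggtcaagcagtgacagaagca
Ugt2a3: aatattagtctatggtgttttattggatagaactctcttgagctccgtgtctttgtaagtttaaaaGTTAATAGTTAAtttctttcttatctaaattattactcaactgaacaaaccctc
Ugt2b38: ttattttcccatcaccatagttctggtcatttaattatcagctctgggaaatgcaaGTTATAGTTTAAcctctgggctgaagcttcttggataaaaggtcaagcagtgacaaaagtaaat
Sult1d1: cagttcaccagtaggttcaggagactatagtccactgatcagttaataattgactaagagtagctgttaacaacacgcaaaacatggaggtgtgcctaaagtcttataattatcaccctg
The windows are chr5:86906938-86907057 for Ugt2b34, chr5:86926504-86926623 for Ugt2b1, chr5:87000740-87000859 for Ugt2b35, chr5:87092556-87092675 for Ugt2b36, chr5:87140341-87140460 for Ugt2b5, chr5:87337196-87337315 for Ugt2a3, chr5:87424204-87424323 for Ugt2b38 and chr5:87569007-87569126 for Sult1d1. The plus strand is read for Ugt2b35 and the minus strand for the rest.

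The motif stood in the RefSeq promoter windows (250 bases before to 50 after the start, both strands searched) of 7 of 7 Ugt2 members and 0 of 2 sulfotransferases. The count of 7 of 7 was fixed in advance, because the motif was chosen for being in all of these windows. Across all 32851 mouse windows of that length, 246 (0.749%) held it, which gives its frequency and is no test of the members. In the Ugt2 members it began 54 bases before the start in Ugt2a3 and 89 bases before it in Ugt2b1, with the other members between these. Close copies share more than the motif: the windows of Ugt2b5 and Ugt2b38 have an identical run of 62 bases that contains the motif, and those of Ugt2b35 and Ugt2b36 share a run of 14 bases made up mostly of it. The windows of Ugt2b1 and Ugt2b36, genes 73.3% identical in coding sequence, share a run of 11 bases from the end of the motif into its flank. A direct repeat of AGGTCA with 4 bases between the copies, of the kind bound by the drug receptors CAR and PXR, was in no member and in 5 windows. The same repeat with 1 base between, of the kind bound by HNF4, was in no member and in 13 windows. TGACNNNGC, the core of the antioxidant response element, was in no member and in 12.4% of windows. These are matches of letters in the windows and not measured binding.

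The coding sequences bear on how well reads can be assigned. Ugt2b38 and Ugt2b5 were 97.0% identical over 1590 aligned bases, with the first 443 coding bases the same in both. Of all 100-base windows in the Ugt2b5 coding sequence, 29.0% also occurred in Ugt2b38 or in Ugt2b37, a further member of the family in the same stretch. Ugt2b34 and Ugt2a3 shared 12 such windows, 0.802% and 0.798% of their own. Ugt2b1, Ugt2b35, Ugt2b36 and both sulfotransferases shared none. The values of Ugt2b5 and Ugt2b38 are therefore uncertain with respect to each other, because the labels do not say how reads matching both were counted. By the step between low values, Ugt2b38 came to 14.7 reads in KO mouse 1, 12.5 in KO mouse 2 and 35.3 in KO mouse 3. These are not whole numbers, and whether shared reads were divided between genes was not tested. At most 0.381% of the Ugt2b5 level would be needed to make up the whole Ugt2b38 level in any mouse.

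Divided by the length of their exons, the levels of the 9 genes spanned a wide range in the WT livers. Ugt2b5 was highest at 209.7 ± 24.6 CPM per kb (SD, n = 6), followed by Ugt2b36 at 126 ± 10.3 CPM per kb. Ugt2b34 at 80.7 ± 5.82 CPM per kb and Ugt2b35 at 77.5 ± 9.64 CPM per kb did not differ beyond their spread, and their order was the other way round in KO. Ugt2b1 followed at 59.2 ± 10.4 CPM per kb, and its range over WT mice overlapped that of Ugt2b35 above it and that of Ugt2a3 below it. Ugt2a3, whose human counterpart conjugates bile acids, stood at 41.0 ± 5.50 CPM per kb. Sult1d1, which acts on catecholamines, stood at 33.9 ± 5.41 CPM per kb, and its range overlapped that of Ugt2a3. Sult1b1, which acts on thyroid hormones and small phenols, was far lower at 4.52 ± 0.982 CPM per kb, and Ugt2b38 was lowest at 0.554 ± 0.139 CPM per kb. Within every mouse, Ugt2b5 was above Ugt2b36 and Ugt2b36 above Ugt2b34, so the top of the order held in 12 of 12 livers. From Ugt2b35 down to Ugt2b38 each gene was also above the next in 12 of 12 livers, although some ranges over mice overlapped. Only Ugt2b34 and Ugt2b35 changed places, with Ugt2b34 the higher in 7 of 12.

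**Figure D1:**
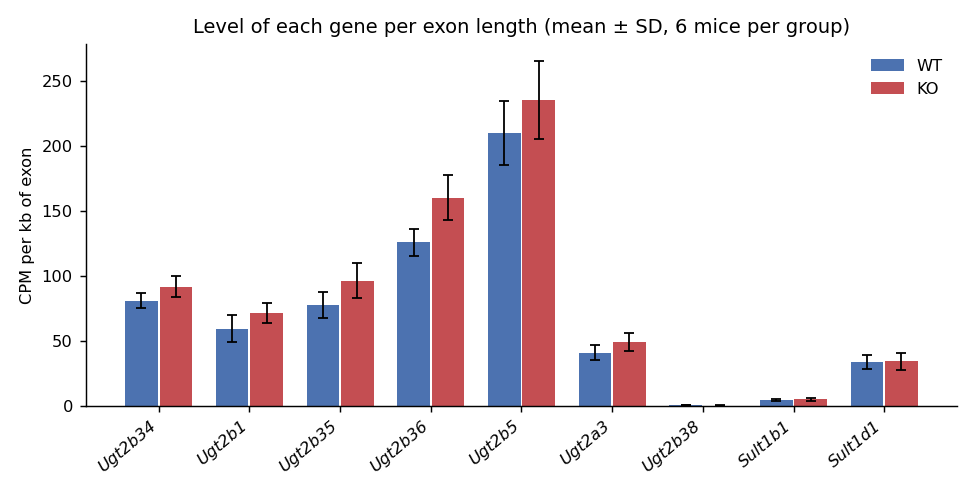
Mean level per kb of exon (CPM per kb, bars from 0, error bars SD over 6 mice) of the 9 genes in chromosome order, WT in blue and KO in red. Ugt2b5 is highest in both genotypes, at 209.7 CPM per kb in WT, and Ugt2b38 is close to 0.

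The order of the main contributors to the Ugt2 output was the same in all livers, with Ugt2b5 first and Ugt2b36 next. Ugt2b5 contributed 33.7% to 37.5% of the summed per-kb level of the 7 Ugt2 genes in the WT mice and 31.2% to 35.0% in the KO mice. Ugt2b36 contributed 19.7% to 22.5% in WT and 21.1% to 24.5% in KO, where 5 of 6 mice were above the highest WT share, some by a small margin. This was not tested. Ugt2b34 and Ugt2b35 contributed between 11.8% and 14.6% each, and Ugt2b38 at most 0.132% in WT and 0.0695% in KO.

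Between genotypes, no member passed the test. A limma fit on log2(CPM + 1) covered 9186 genes whose mean reached 10 CPM. At an adjusted p of 0.05 it called 14 of them (0.152%), 10 higher in KO (0.109%) and 4 lower (0.0435%). Other scalings called 10 higher and 8 lower (median of ratios), 11 and 8 (quantile), and 9 and 6 (total without the 20 highest genes). Of the 9 members, 8 were in that fit and 0 were called, while Ugt2b38, with a mean of 0.759 CPM, was below the filter. An exact permutation test over mice, in which the smallest p that the 924 assignments allow is 0.00216, called 0 genes after adjustment and had 832 genes at an unadjusted p under 0.05. With that smallest p, adjustment over 9186 genes can call a gene only if many genes reach it, so its 0 calls say little. At an unadjusted limma p under 0.05 there were 5 of the 8 fitted members, each higher in KO. Ugt2b38, outside this fit, was lower in KO with an unadjusted p of 0.00114 in a limma fit without the filter. Of all genes tested 9.8% were under that p, 4.51% higher and 5.29% lower in KO, and of the 595 tested on chromosome 5 8.24% were higher. In no member did all 6 KO mice lie above all 6 WT mice, an arrangement found in 0.359% of genes tested. All 8 fitted members had a higher mean in KO, with a median difference of 0.22 (log2), while 45.6% of all genes tested were higher and the median over them was -0.01. Hepatocyte lists, which share some genes, also leaned higher: 7 of 9 fitted general markers (median 0.07), 7 of 8 periportal (0.13) and 7 of 10 pericentral genes (0.08). Among other cell types it was 5 of 5 endothelial, 3 of 7 macrophage, 1 of 7 stellate and 0 of 3 cholangiocyte markers. The 8 members share mice and vary together, so they are not 8 separate observations. The summed CPM of the 9 genes was 1593 ± 153 in WT and 1871 ± 199 in KO (SD, n = 6).

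Among the 8 fitted members, Ugt2b36 (ENSMUSG00000070704) had the largest difference and the smallest p. It ranged from 229 CPM over a median of 262 to 286 CPM in WT, and from 272 over 336 to 366 CPM in KO. The KO mice 1 to 5 were all above the highest WT mouse, and only KO mouse 6 fell among the WT values. The difference was 0.35 ± 0.08 (log2, SE; 95% interval 0.17 to 0.52), with an adjusted p of 0.126 in limma and an exact permutation p of 0.00649. Its rank by p was 54 of the 9186 genes.

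Ugt2b35 showed a similar arrangement. Its WT values ran from 222 over a median of 260.0 to 316 CPM, and its KO values from 239 over 330.0 to 371 CPM. The KO mice 1 to 5 were again above every WT mouse, KO mouse 1 by a small margin, and KO mouse 6 was above only WT mice 3 and 6. The difference was 0.30 ± 0.11 (limma, adjusted p 0.294).

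Ugt2b1, the counterpart of a rat enzyme that conjugates bisphenol A and other phenols, overlapped more. It ran from 121 over a median of 151 to 199 CPM in WT and from 155 over 186 to 209 CPM in KO. WT mouse 5 was higher than 5 of the 6 KO mice, and 4 WT mice were below every KO mouse. The difference was 0.28 ± 0.11 (limma, adjusted p 0.366).

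Ugt2a3 shared the feature that WT mouse 5 stood high. Its WT values ran from 77.1 over a median of 82.3 to 108 CPM and its KO values from 83.6 over 110.5 to 118 CPM. KO mice 1 to 4 were above every WT mouse, whereas KO mice 5 and 6 were below WT mouse 2. The difference was 0.26 ± 0.10 (limma, adjusted p 0.392).

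Ugt2b34 had the least relative spread of the 9 genes, with a coefficient of variation of 10.3% over the 12 mice. It ran from 303 over a median of 351 to 379 CPM in WT and from 339 over 410.0 to 433 CPM in KO. KO mice 1, 2, 3 and 5 were above every WT mouse. The difference was 0.18 ± 0.07 (limma, adjusted p 0.362).

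Ugt2b5, the most abundant member, ran from 340.2 over a median of 386 to 468 CPM in WT and from 347 over 447 to 494 CPM in KO. The groups overlapped over most of their range, and KO mice 1, 2 and 3 were above the highest WT mouse, WT mouse 2. The difference was 0.16 ± 0.10, with a 95% interval of -0.04 to 0.37 and an adjusted p of 0.646 in limma. With quantile normalization it was 0.10 (limma, adjusted p 0.808).

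Ugt2b38 was the exception in direction. It ran from 0.722 over a median of 1.04 to 1.37 CPM in WT and from 0.219 over 0.365 to 0.879 CPM in KO. By the step this is 12.5 to 83.2 reads per library, which are estimates and not whole observed reads. KO mice 1, 2, 3 and 4 were below every WT mouse, while KO mice 5 and 6 lay within the WT range. In a limma fit without the filter on low values the difference was -0.49 ± 0.12 on log2(CPM + 1), with an adjusted p of 0.0997 and an exact permutation p of 0.0108. In that fit 29 of 20143 genes (0.144%) were called, and 8.23% had an unadjusted p under 0.05 with the lower mean in KO. The WT mean was 2.23 times the KO mean, a larger ratio than the log2 value gives because the added 1 outweighs such low CPM. With a pseudocount of 0.5 the log2 difference was -0.70 and with 10 it was -0.08. Relative to Ugt2b5, with which it shares sequence, Ugt2b38 was 0.154% to 0.381% in WT and 0.0444% to 0.215% in KO. The Ugt2b38 share of Ugt2b5 was below every WT value in KO mice 1, 2, 3 and 4, as was its level.

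Neither sulfotransferase passed the test, and the intervals show what size of difference these mice could still hold. Sult1b1 ran from 9.91 over a median of 12.2 to 17.5 CPM in WT and from 9.44 over 13.5 to 18.1 CPM in KO. Its difference was 0.14 ± 0.16, with a 95% interval of -0.19 to 0.48 (limma, adjusted p 0.844), and leaving out single mice moved it between 0.068 (without KO mouse 4) and 0.24 (without KO mouse 6). Sult1d1 ran from 62.8 over a median of 85.8 to 95.7 CPM in WT and from 59.9 over 88.3 to 98.3 CPM in KO. Its difference was 0.01 ± 0.13, with a 95% interval of -0.28 to 0.30 (limma, adjusted p 0.994), and its sign changed with the mice included.

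**Figure D2:**
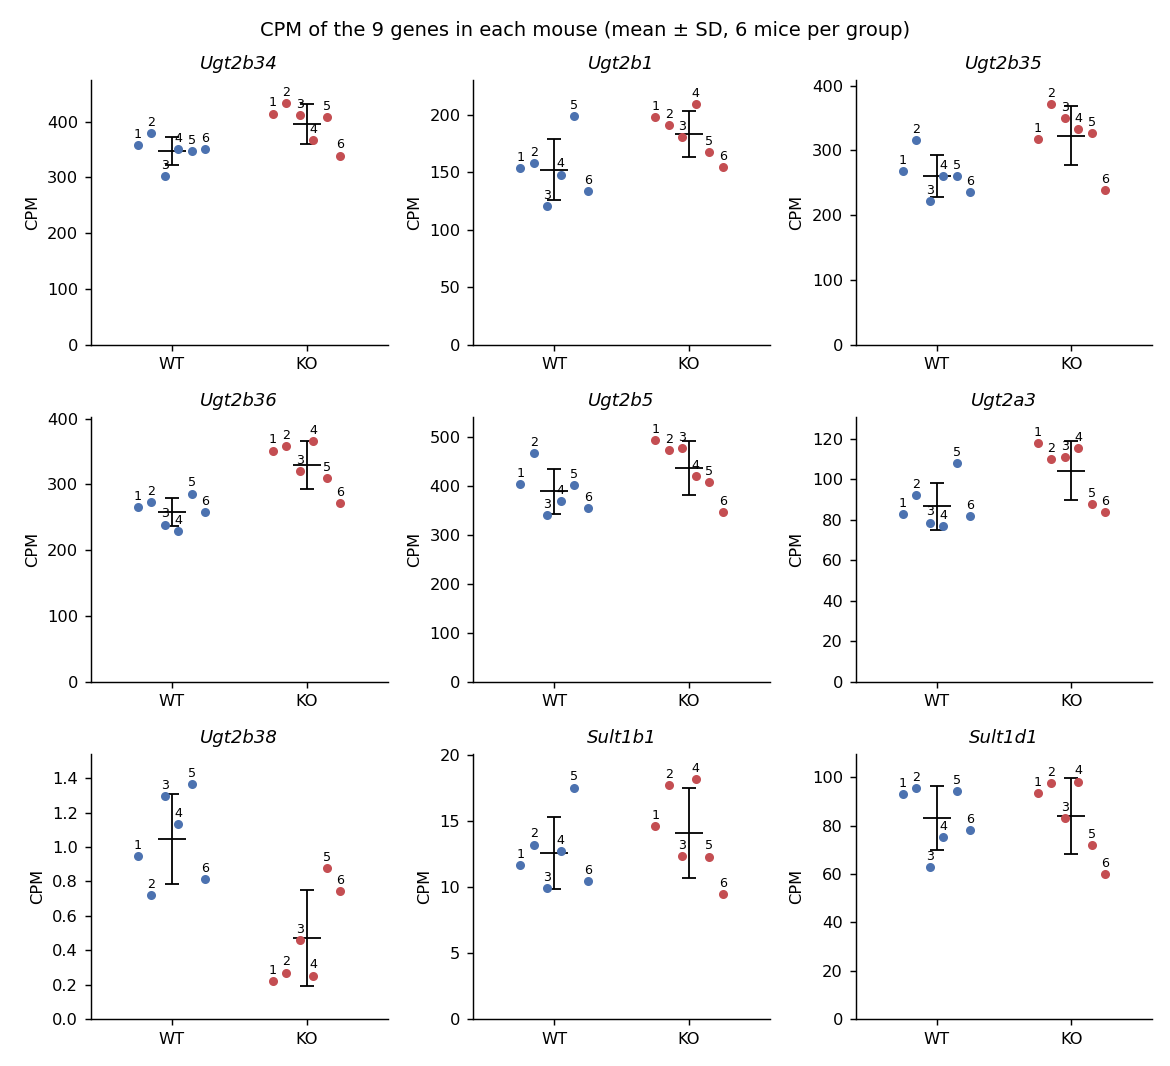
CPM of each of the 9 genes in each mouse (points numbered by mouse, WT blue, KO red, bars mean ± SD of 6 mice, each panel with its own scale from 0). KO mouse 6 is the lowest KO mouse in every panel but that of Ugt2b38, where KO mice 1, 2 and 4 are lowest at 0.219 to 0.270 CPM.

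**Figure D3:**
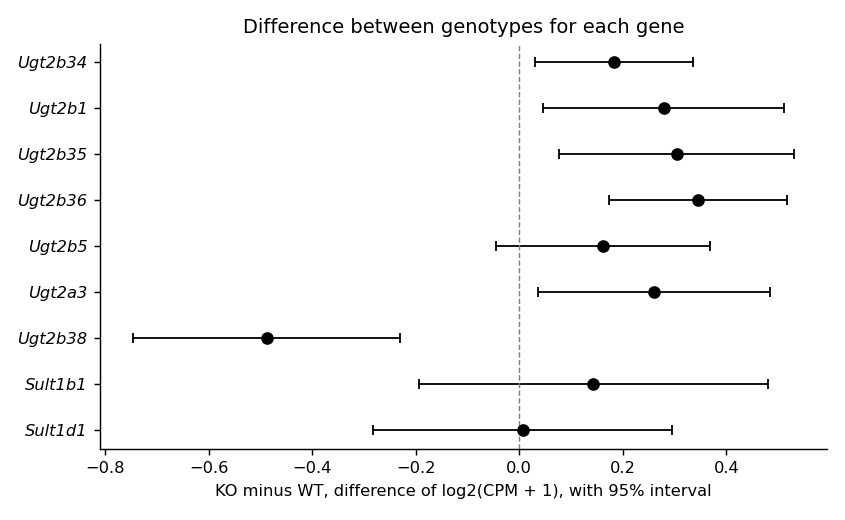
Difference of mean log2(CPM + 1), KO minus WT, for each gene with its 95% interval from limma, Ugt2b38 from the fit without the filter. The other 6 Ugt2 genes lie to the right of 0, from 0.16 for Ugt2b5 to 0.35 for Ugt2b36, and Ugt2b38 lies to the left at -0.49.

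The same mice stood high or low in nearly all members. KO mouse 6 was the lowest KO mouse in 8 of 8 fitted members, and WT mouse 3 was the lowest WT mouse in 6 of 8. WT mice 2 and 5 were the highest WT mice in 4 members each, and KO mouse 4 was the highest KO mouse in 4. With group means removed, all 28 pairs among the 8 members were positively related across the 12 mice, with a median Pearson r of 0.793 and a range of 0.430 to 0.923. Of 36 pairs tested in all, 19 had an adjusted p under 0.05 (permutation of mice within groups), and 18 of these were among the 28. Without the 2 mice farthest from the median of 1 gene of the pair, r over the 28 ran from -0.219 to 0.926.

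The closest pairs crossed the enzyme families. Ugt2b36 and Sult1d1 had r = 0.923 and Spearman's rho = 0.923 (permutation, adjusted p 0.0031 and 0.00252), and r = 0.926 without the 2 mice farthest from the Ugt2b36 median. Ugt2b1 and Sult1b1 had r = 0.902 and rho = 0.944 (permutation, adjusted p 0.00198 and 0.00252), and r = 0.894 without 2 mice. Ugt2b36 and Sult1d1 thus moved together from mouse to mouse although their genotype differences were unlike, at 0.35 and 0.01.

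The relations of Ugt2b34 differed from partner to partner. With Ugt2b5 its r was 0.841 (permutation, adjusted p 0.00495; rho 0.804, adjusted p 0.0146) and 0.710 without the 2 mice farthest from the Ugt2b5 median. With Ugt2b35 its r was 0.852 (permutation, adjusted p 0.00495; rho 0.692, adjusted p 0.0439) and 0.581 without the 2 mice farthest from its median. With Sult1b1 its r was 0.453 (permutation, adjusted p 0.187; rho 0.350, adjusted p 0.300) and -0.22 without those 2 mice, so that relation did not hold. With Sult1d1, 1 of the pairs counted above, its r was 0.694 (permutation, adjusted p 0.0389; rho 0.462, adjusted p 0.198). That r fell to 0.070 without those 2 mice. Without those 2 mice its r with Ugt2b36 and Ugt2a3 was -0.055 and -0.070. Its r with Ugt2b1 was 0.402 without the 2 mice farthest from the Ugt2b1 median.

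Ugt2b38 was negatively related to each of the other 8 genes, with r between -0.70 and -0.32. The pair with Sult1d1 was under 0.05 by Pearson's r (r = -0.703, permutation, adjusted p 0.0389) but not by rank (rho = -0.685, adjusted p 0.0625), and was -0.558 without 2 mice. Any relation across mice in these data also carries what the libraries share, such as depth and RNA composition.

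**Figure D4:**
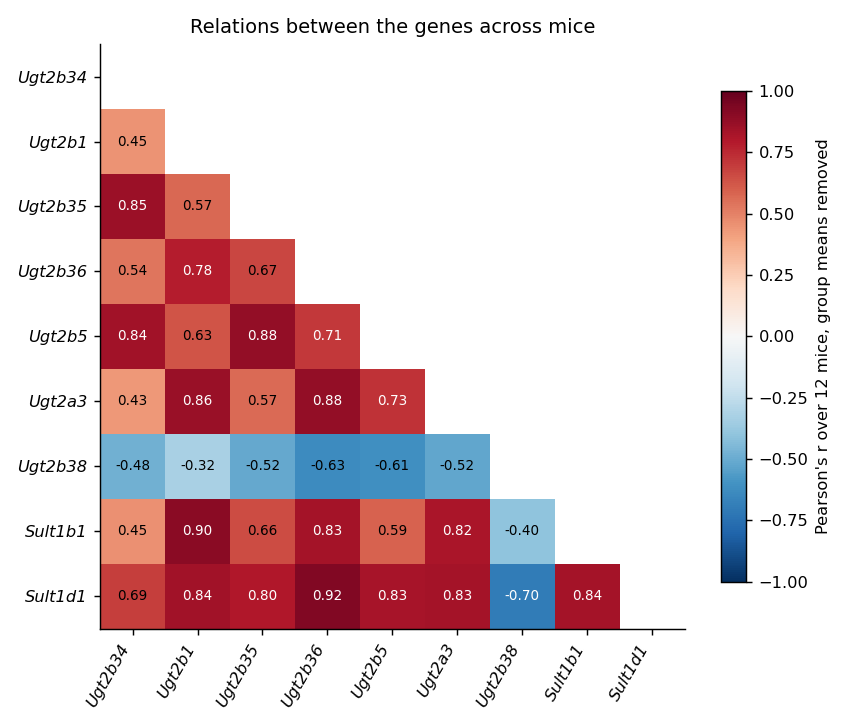
Pearson's r between each pair of the 9 genes over 12 mice after removal of group means, red for positive and blue for negative values. The Ugt2b38 row and column are negative throughout, from -0.70 to -0.32, and all other cells are positive.

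Among tested genes outside the list, the gene whose mouse-to-mouse pattern was most like each member lay on another chromosome. Of the 9186 genes tested only 595 lay on chromosome 5, members included, so a likest gene elsewhere is the usual case. The likest to Ugt2a3 was Etfa, an electron transfer flavoprotein subunit of fatty acid oxidation (r = 0.961 over 12 mice, group means removed), and the likest to Ugt2b36 was Mdh1, cytosolic malate dehydrogenase (0.908). Klkb1, the plasma kallikrein precursor, was likest to Ugt2b1 (0.953), and Slc25a5, a mitochondrial ADP/ATP carrier, to Ugt2b35 (0.878). For Ugt2b5 it was Impa1 (0.913), for Ugt2b34 Ankrd49 (0.931), for Sult1b1 Nox4 (0.957) and for Sult1d1 Nxt2 (0.936). Each is the highest value over all tested genes that are no member, and is given as a description only. Ptprd was among the 3 likest genes of both Ugt2b1 and Sult1b1, Impa1 of both Ugt2b5 and Ugt2b35, and Abca6 of both Ugt2b36 and Sult1d1.

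The rest of the conjugation pathway was counted from lists of genes. The Ugt1 family, which makes several enzymes by joining different first exons to shared exons, had 9 genes measured and 5 fitted. All 5 had higher means in KO, 3 at an unadjusted limma p under 0.05 and 0 called. Of all genes tested, 45.6% had higher means in KO, and 4.51% were higher at that p. Ugt1a6b led the list at 120.1 ± 12.4 CPM in WT and 143 ± 9.0 CPM in KO (log2 difference 0.26, limma adjusted p 0.172). Because reads from the shared exons fit every Ugt1a gene, these values are not independent of each other. Ugt3a2 and Ugt3a1, relatives that use other sugars, were at 272 and 47.2 CPM in WT and 299.6 and 52.1 CPM in KO, with neither called. Of the 5 genes that make and carry UDP-glucuronate, 4 had higher means in KO, against 45.6% of all genes tested, and 0 were called. Pgm1, which supplies glucose 1-phosphate, was at 139 ± 11.4 and 158 ± 9.71 CPM (limma, adjusted p 0.285), and Slc35d1, a carrier of UDP-glucuronate into the endoplasmic reticulum, at 212 ± 22.3 and 244 ± 20.2 CPM (limma, adjusted p 0.368).

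On the sulfation side, 3 of the 7 fitted genes for PAPS supply and turnover had higher means in KO, against 45.6% of all genes tested, and 0 were called. Slc26a1, a sulfate carrier, had the smallest p of that list, at 248 ± 30.4 CPM in WT and 209.6 ± 21.4 CPM in KO (limma, adjusted p 0.329). Of the other sulfotransferases, Sult2a8 was at 145 ± 49.9 CPM in WT and 198 ± 40.3 CPM in KO (limma, adjusted p 0.353), and Sult1e1, the oestrogen sulfotransferase next to Sult1d1, was at 4.08 ± 2.72 and 4.10 ± 3.50 CPM. Of the 13 regulators known for conjugation and hepatocyte genes, 11 had higher means in KO, against 45.6% of all genes tested, and 0 were called. Foxa2 was at 19.8 ± 3.93 and 25.6 ± 2.96 CPM (limma, adjusted p 0.217).

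Genes near the members on the chromosome were also counted. Within 1 Mb, 17 other genes were measured and 6 were fitted, of which 0 were called. An unadjusted limma p under 0.05 was found for 2 of the 6, against 9.8% of all genes tested. The 2 were Stap1 at 12.0 ± 2.44 and 15.9 ± 3.0 CPM and the pseudogene Gm5869 at 10.9 ± 0.745 and 9.42 ± 1.31 CPM in WT and KO. Ugt2b37, a close relative of Ugt2b5, was below the filter at 3.92 ± 0.515 CPM in WT and 4.73 ± 0.973 CPM in KO. The smallest p below the filter were those of Jchain and the pseudogene Gm20121 (limma without filter, adjusted p 0.120 and 0.198). Jchain was at 6.48 ± 2.91 and 3.03 ± 1.24 CPM. Gm20121, outside the gap described next, had 0.983, 0.669, 0.822 and 1.30 CPM in KO mice 1 to 4. It had 0.180 and 0.520 CPM in KO mice 5 and 6, and at most 0.526 CPM in WT, in mouse 5.

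Between Ugt2a3 and Ugt2b38 lies a gap of 72.7 kb with 4 measured features, which were singled out after their values were seen. They are Gm7652, a pseudogene 90.1% identical to Ugt2a1; Gm42796, an unverified transcript inside Gm7652 on the other strand; Gm35570, a processed pseudogene 97.7% identical to Idi1; and Gm21049, a pseudogene 91.2% identical to Ugt2b36. Their summed level was 34.3, 31.2 and 35.8 CPM in KO mice 1, 2 and 4 and 18.7 CPM in KO mouse 3. KO mice 5 and 6 had 8.51 and 11.0 CPM. The WT mice had 9.39, 11.1, 7.78, 12.5, 21.5 and 11.3 CPM in the order of their numbers, with mouse 5 highest. The KO group was thus split, and its mean of 23.3 ± 12.1 CPM described none of its mice well. KO mice 1, 2 and 4, high in these features, were the same 3 that were lowest in Ugt2b38, the next gene along. This order was not particular to the gap. The same 3 were the highest KO mice in Ugt2b36, Ugt2b1, Sult1b1 and Sult1d1, though not in Ugt2b5, Ugt2b34, Ugt2b35 or Ugt2a3. WT mouse 5 was also the highest WT mouse in Ugt2b36, Ugt2b1, Ugt2a3 and Sult1b1, and WT mouse 2 in the remaining fitted members. In the limma fit without a filter none of the 4 features was called, with adjusted p-values of 0.299 for Gm7652, 0.543 for Gm42796, 0.392 for Gm35570 and 0.440 for Gm21049. Ugt2a1 was looked for but was not among the genes measured, and the labels do not say how reads matching both a feature and its relative were counted.

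**Figure D5:**
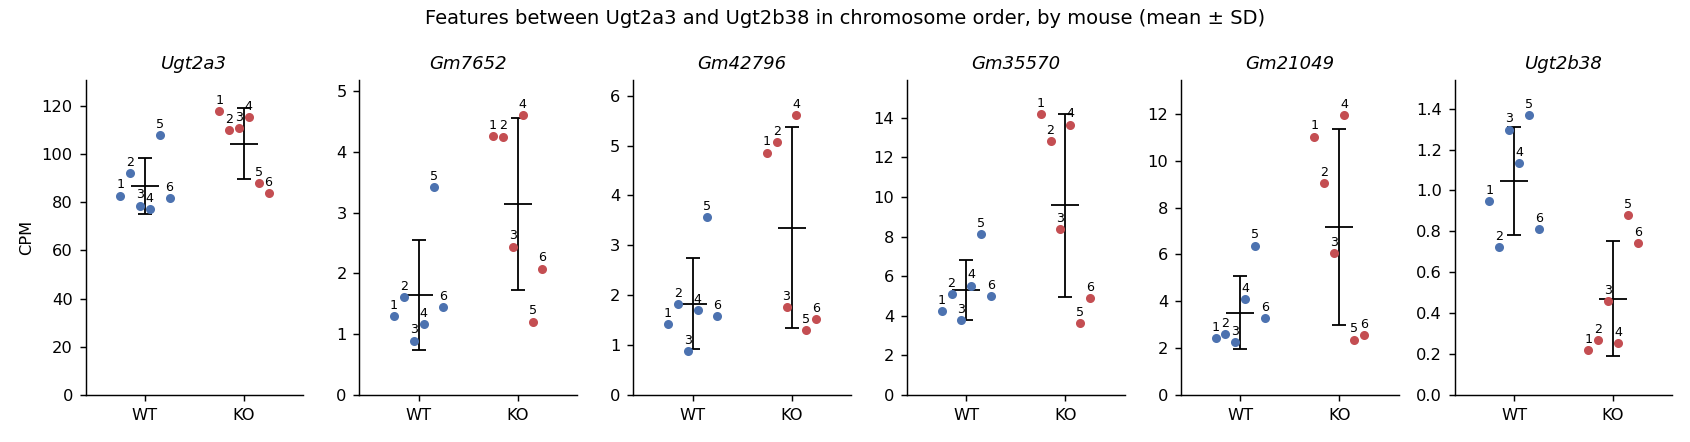
CPM in each mouse (points numbered, WT blue, KO red, mean ± SD of 6 mice, each panel with its own scale from 0) for Ugt2a3, the 4 features of the gap and Ugt2b38, in chromosome order. KO mice 1, 2 and 4 are highest in the 4 features and lowest in Ugt2b38, while KO mice 5 and 6 lie within or near the WT range.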

How the data were processed

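Liver RNA of 12 mice was sequenced from total RNA after depletion of ribosomal RNA with a directional kit, per the labels' protocols, although another label calls the molecule polyA RNA. The submitters' processing notes name mm10, Partek 10.0, STAR 2.7.3a and DESeq2 1.14.1 without their roles. Counting rule, annotation and strand setting remain unknown (not given in the sources used here). Deposited by the authors is 1 table of normalized values, which are CPM: each column sums to 1000000, and low values fall on steps common to all genes (71.4% to 76.5% of values under 0.6 CPM within 0.02 of a whole step), so 1 CPM is 46.3 to 77.9 counts. Whole reads could not be recovered for nearly all genes, so no count test was run.

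Genes were named and placed with GENCODE vM21 (20055 of 20143 matched). KO and WT were compared with limma 3.58.1 in R 4.3.3 on log2(CPM + 1) with a mean trend, over 9186 genes (mean 10 CPM or more), two-sided, with Benjamini-Hochberg adjustment and a threshold of 0.05. The exact two-sided permutation test used all 924 assignments, and relations used 100000 permutations within groups (Python 3.11.15, NumPy 2.4.6, SciPy 1.17.1). Coding sequences were aligned with mafft 7.526 and pseudogenes searched with BLASTN 2.17.0 (at least 500 aligned bases). Some searched items are not reported here. Promoters are RefSeq windows on GRCm38.p6 for all 9 members. The limma procedure was tested on simulated data, with larger differences than the members had and with genes varying independently. That test therefore says nothing about power or error for these members.

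The members and lists were chosen with earlier results of these data known. Named are all 9 members, up to 4 genes of each list with the smallest p, the 3 genes likest to each member and Hsd17b13. Also named are up to 4 fitted neighbours, the 4 features of the gap and some neighbours below the filter. Mouse numbers were not used to pair the samples in the main fit. Same-numbered mice of the 2 groups had correlations of their deviations from -0.51 to 0.39, too few values to decide whether the numbers pair mice. Whether the samples came from separate cages or litters is not given, so p-values measure only the spread between these samples. Alternatives were other pseudocounts, filters, scalings, variance models, a block on the mouse number, leaving out each mouse and the exact test.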

Additional observations from a re-analysis of the deposited data

Results flagged for a closer look

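In 6 WT mice, mouse 5 stood apart in 2 features of the gap between Ugt2a3 and Ugt2b38. Its Gm7652 level was 3.42 CPM, and its gap to the nearest WT mouse was 0.719 of the WT range, above Dixon's 95% limit for 6 values. Its Gm42796 level was 3.57 CPM, with a gap of 0.648 of the range. These are 2 of 28 groups examined for a value far from the rest, and chance alone marks about 1 in 20. Gm42796 overlaps Gm7652 on the other strand, and whether reads were counted for both was not tested. The same mouse was the highest WT mouse in Ugt2b38 at 1.37 CPM, whereas the KO mice high in the gap features were low in it.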

How the results depend on the processing

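Over all alternatives, no member was called, and the 7 Ugt2 members and Sult1b1 kept their direction. The exact test adds little to this, because its smallest p of 0.00216 is coarse for adjustment over so many genes. The lowest adjusted limma p of any member was 0.0689 for Ugt2b36, reached without KO mouse 6, and 0.0722 for Ugt2b38 without KO mouse 5. The Sult1d1 difference changed sign: it was -0.013 after scaling to a total without the 20 highest genes, -0.037 with library weights, and from -0.071 to 0.098 when each mouse was left out, being negative without WT mice 3, 4 or 6 or KO mice 1, 2 or 4. The Ugt2b38 difference was -0.70 with a pseudocount of 0.5 and -0.08 with 10. The count of all genes called was 14 and became 29 without a filter (13 higher and 16 lower in KO), 31 with a mean of at least 1 CPM (16 and 15), 4 with at least 100 CPM (1 and 3), 35 with library weights (19 and 16), 0 with the exact permutation test (832 genes at an unadjusted p under 0.05), and 9 (without WT mouse 3) to 25 (without KO mouse 3) when each mouse was left out. With the replicate number as a block, 11 genes and 0 members were called, and the adjusted limma p was 0.168 for Ugt2b36. For 2 of 6 WT mice the best correlated KO mouse had the same number, and the numbers were not used to pair mice in the main fit. The causes of these changes were not tested. Ugt2b38 rested on an estimated 12.5 to 83.2 reads per library, not whole numbers.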

Other observations

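The mouse lowest in the conjugating enzymes within the KO group also stood low or high among the KO mice in other lists. KO mouse 6, lowest KO mouse in 8 of 8 fitted members, had the lowest sum of the 11 measured xenobiotic receptor targets of all 12 mice. That sum was 1696 CPM against 2198 to 2903 CPM in the other KO mice. Its largest part was Cyp3a11, which was lowest of all 12 mice there at 667 CPM. The list did not move as 1: Cyp3a13 was highest of all 12 mice in KO mouse 6, at 119.7 CPM. In KO mouse 6 the sum of the 7 conjugate transporters, among them Abcc2, the canalicular export pump, was 1807 CPM. The other KO mice had 2004 to 2413 CPM, and the WT mice had 1793 to 2113 CPM, a range that holds the value of KO mouse 6. The sum of the 13 regulators in KO mouse 6 was the highest of all 12 mice at 2519 CPM. Its hepatocyte marker sum of 79019 CPM was the lowest but 1 of the KO mice, above the 78161 CPM of KO mouse 5.

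None of the fitted transporters or receptor targets was called. Abcc3, which exports conjugates to blood, was at 285 ± 49.8 CPM in WT and 339.9 ± 58.0 CPM in KO (limma, adjusted p 0.536). Cyp2c29 was at 29.8 ± 8.87 and 39.6 ± 10.1 CPM (limma, adjusted p 0.576). Gusb, the lysosomal glucuronidase that removes glucuronic acid, was at 61.7 ± 6.78 and 55.1 ± 6.61 CPM (limma, adjusted p 0.613). Afm of the albumin cluster, on the same chromosome, was at 100.1 ± 9.10 and 130.3 ± 15.4 CPM (limma, adjusted p 0.116). Of 9 fitted male-biased liver genes 7 had higher means in KO, against 45.6% of all genes tested, and 0 were called. Cyp2b9, the only fitted female-biased gene, was at 18.5 ± 11.8 CPM in WT and 28.0 ± 14.5 CPM in KO (limma, adjusted p 0.711).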
